A study of Mus musculus with 45 samples.

Results

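Adipocytes of insulin-resistant mice were compared between 16 and 8 weeks of a Western (high-fat) diet. The comparison holds 14 of the 45 mice of the series, chosen by their labels: 9 mice fed for 16 weeks (DW16) and 5 fed for 8 weeks (DW8), with 1 Affymetrix MG430-2.0 array per mouse and all 45037 probe sets of the deposited table. All 14 were C57BL/6 females of the genotype IR+/- IRS1+/- ApoE-/-, called D mice here: heterozygous for the insulin receptor and for its docking protein IRS1, and without apolipoprotein E. Mice of the same genotype on chow for 8 weeks (DC8, n = 7) and 16 weeks (DC16, n = 5), and mice that lacked only apolipoprotein E (E mice) on the Western diet for 8 weeks (EW8, n = 6) and 16 weeks (EW16, n = 8), are used beside them. The diet began at 8 weeks of age, so DW16 mice were also 8 weeks older than DW8 mice, and within this pair of groups age and time on the diet cannot be told apart. Both groups carry the same alleles. The adipocytes came from parametrial and periovarian fat of mice that had been fed freely and were killed in the morning.

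White adipocytes store triglyceride in a single droplet coated by perilipin proteins, and insulin acts on them through its receptor, IRS1 and IRS2, PI3-kinase and AKT to raise glucose uptake, drive lipid synthesis and hold back lipolysis. Isolated adipocytes are also known for the rapid induction of immediate early and cytokine genes while the tissue is digested, and for carrying over macrophages, endothelial cells and stroma. Like other tissues, white fat holds a circadian clock, in which BMAL1 (gene ARNTL) and CLOCK drive the period, cryptochrome and REV-ERB genes, and REV-ERB proteins repress ARNTL. Cholesterol synthesis is driven by SREBP2 when cell sterols are low.

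The values are log2 intensities that the authors had normalized with RMA, and they are given here both as deposited and after a further quantile normalization over all 45 arrays. The reason is that the DW16 arrays stand apart. The 95th percentile of an array's log2 values lay between 11.06 and 11.12 in the 5 DW8 mice and at 11.05 and 10.99 in DW16 mice 8 and 9, within the 10.95 to 11.14 of all 35 arrays outside a narrow range. In DW16 mice 1 to 7 it lay between 10.22 and 10.85, and 3 EW16 mice had arrays of the same kind. These 10 are called narrow-range arrays, by a boundary set after the values had been seen. No date or batch is given for any array, so for DW16 mice 1 to 7 the narrow range and 16 weeks of the diet cannot be told apart. Differences are therefore also given for DW16 mice 8 and 9 alone (n = 2) against the 5 DW8 mice. A pair of differences in parentheses after a gene is that of all 9 DW16 mice as deposited, then that of mice 8 and 9.

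**Figure D1:**
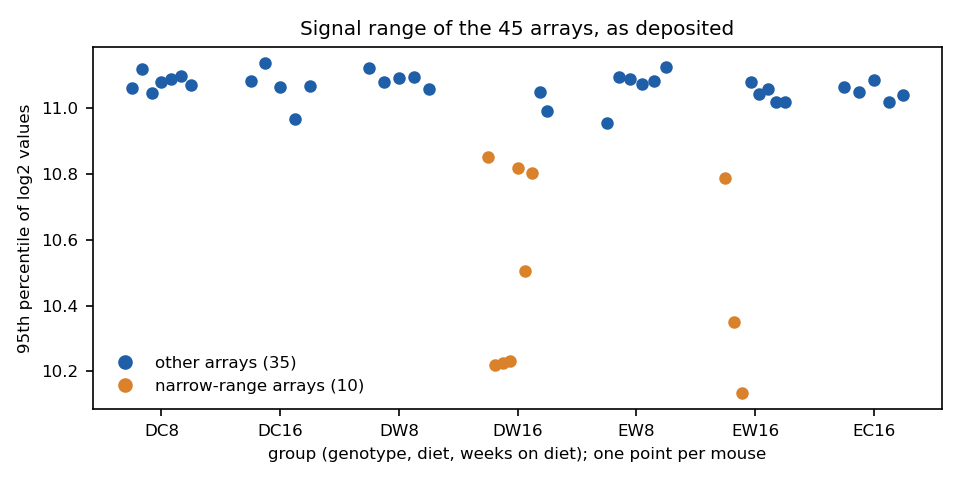
The 95th percentile of the log2 values on each of the 45 arrays (vertical axis, log2 units), by group, with 1 point per mouse. Orange points are the 10 narrow-range arrays: DW16 mice 1 to 7 and EW16 mice 1 to 3 lie at 10.85 or lower, and the other 35 arrays between 10.95 and 11.14.

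More genes were lower than higher after the longer diet as the values were deposited, and about as many were higher as lower after quantile normalization. A probe set is said to be called where its adjusted p in limma was under 0.01 over all probe sets. As deposited, 2436 of 45037 probe sets were called (5.41%), 420 higher in DW16 (0.933%) and 2016 lower (4.48%). After quantile normalization 2479 were called (5.5%), 1209 higher (2.68%) and 1270 lower (2.82%). Higher calls thus made up 17.2% of calls as deposited and 48.8% afterwards. The scales shared 1430 calls (58.7% of those as deposited and 57.7% of those after quantile normalization), from 1143 genes, with 298 higher, 1132 lower and 0 in opposite directions. Below, a gene is said to have risen or fallen where it was called on both scales.

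How many probe sets were called rested on single mice. As deposited the count was 208, 213, 209, 514 and 720 without DW8 mice 1 to 5 in turn. It was 1499, 988, 1012, 962, 1184, 847 and 1174 without DW16 mice 1 to 7, and 7301 and 5515 without DW16 mice 8 and 9. After quantile normalization it lay between 198 and 872 without a DW8 mouse, between 1318 and 1766 without one of DW16 mice 1 to 7, and at 6197 and 4877 without mice 8 and 9. The count was thus lowest without a DW8 mouse and highest without a DW16 mouse of full-range array. Of 89 probe sets of genes named here that were called on both scales and tested again without each of the 14 mice in turn, 15 kept the call on both in every case, among them those of RASD1, HIVEP3, PRPS1, OLR1, MEDAG, PLIN4, PMEPA1 and TM7SF2. In others the call held with only 2 of the 14 left out on each scale, as in CIDEC, BAG3, ULK1, GBP3, PTPRC, SPARC and TGFB1. That of DEPP1 held with 7 left out as deposited and 3 after quantile normalization.

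The tilt toward falls was largest among genes of high level. Among the tenth of probe sets with the highest mean the median log2 difference was −0.489 as deposited, −0.063 after quantile normalization and −0.0481 in mice 8 and 9. Among the tenth with the lowest mean it was 0.0994 as deposited and 0.0168 after quantile normalization.

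**Figure D2:**
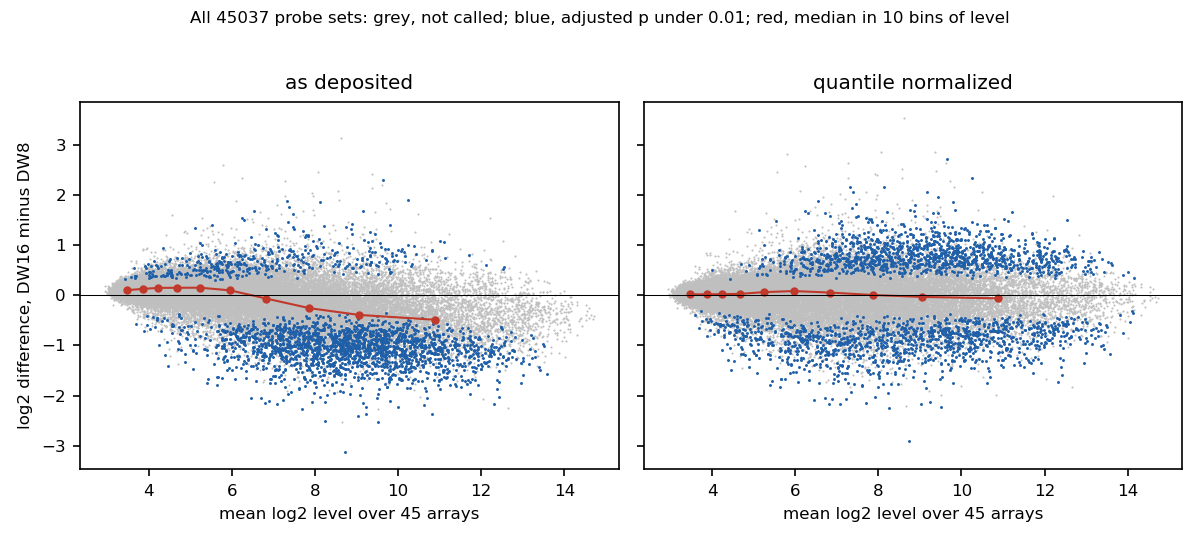
Log2 difference DW16 minus DW8 (vertical axis) against the mean log2 level over the 45 arrays (horizontal axis) for the 45037 probe sets, as deposited on the left and after quantile normalization on the right. Blue points are called and red points are medians in 10 bins of level with equal numbers of probe sets, which run down to −0.489 at the highest levels on the left and stay near 0 on the right.

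The shared calls were smaller in the DW16 mice whose arrays match those of DW8. The median size of the difference over the 1430 probe sets was 1.09 log2 units in all 9 mice and 0.495 in mice 8 and 9, where the sign was the same for 1430 of 1430. Mice 8 and 9 enter the 9, so that agreement in sign is not independent. In 703 of the 1430 (49.2%, with 161 higher and 542 lower) both of these mice lay beyond the whole DW8 range on the side of the call, against 15.8% of all probe sets that did so on either side. This share too rests in part on the choice, since mice 8 and 9 were among those that made the calls. For 26 probe sets of 24 genes the difference was at least as large in mice 8 and 9 alone on both scales, and for 134 of 108 genes it was at least 80% as large. With DW16 mice 1 to 7 left out 1 probe set was called on each scale, and 6021 as deposited had an unadjusted p under 0.05. That 1 was MVD, described with the sterol genes.

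**Figure D3:**
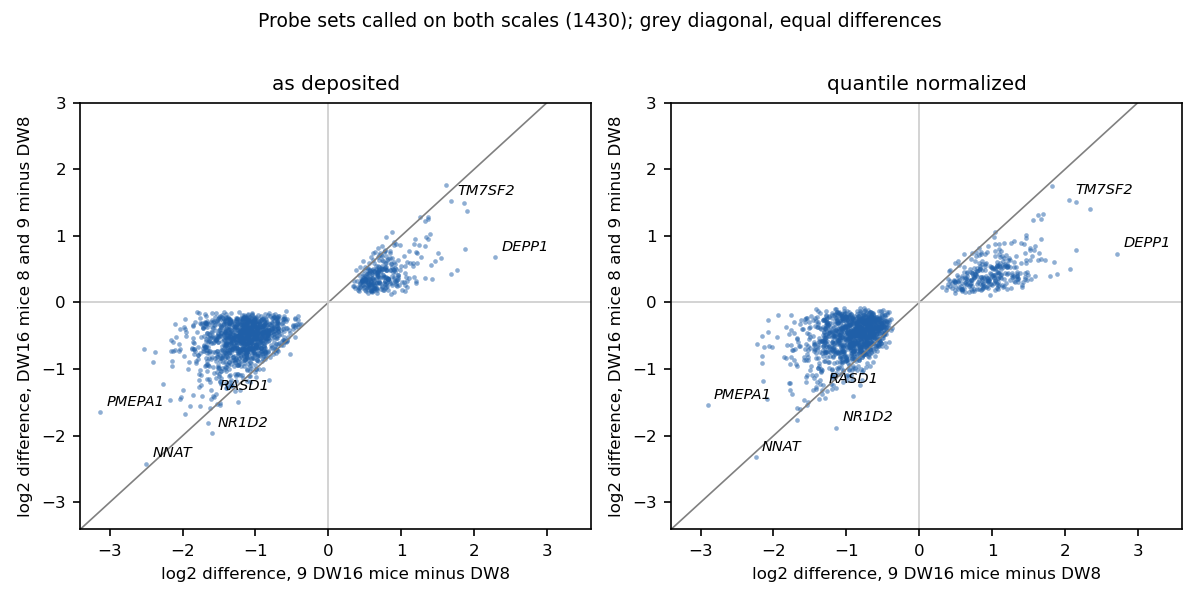
Log2 difference from DW8 in DW16 mice 8 and 9 (vertical axis) against that in all 9 DW16 mice (horizontal axis) for the 1430 probe sets called on both scales, as deposited and after quantile normalization. Points on the grey diagonal differ as much in mice 8 and 9 as in all 9, and most lie nearer to 0 on the vertical axis (median size 0.495 against 1.09), and NNAT, NR1D2, RASD1 and TM7SF2 lie close to the diagonal.

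The smallest adjusted p was that of RASD1, a Ras-like G protein that is induced by glucocorticoids. Its log2 level was 9.12, 8.64, 8.88, 8.56 and 8.63 in DW8 mice 1 to 5, and ran from 6.69 to 7.40 in the 9 DW16 mice with a median of 7.28. No DW16 mouse reached the DW8 range, and mice 8 and 9 (7.33 and 7.40) were among the highest of their group yet more than 1 log2 unit below every DW8 mouse. The difference was −1.58 (SE 0.13, adjusted p = 0.000111), −1.33 after quantile normalization (adjusted p = 0.000396) and −1.41 in mice 8 and 9 (adjusted p = 0.0446). On chow it differed by −0.02 over the same time. HIVEP3, a zinc finger protein, was next in adjusted p (−1.24, SE 0.109, adjusted p = 0.000159), with 8.71 to 9.15 in DW8, 7.42 to 7.95 in DW16 (median 7.82) and 7.90 and 7.94 in mice 8 and 9. It is measured by 5 probe sets, of which only this 1 was called and whose differences ran from −1.24 to 0.59. These were also the only 2 probe sets called when the SD of each array was a covariate (95 at an adjusted p under 0.05).

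PLIN4, a perilipin of the lipid droplet surface, was lower in every DW16 mouse than in any DW8 mouse. Its level was 14.10, 14.07, 14.18, 13.98 and 14.05 in the DW8 mice and 12.12 to 13.19 in the DW16 mice (median 12.51), with 13.19 and 13.18 in mice 8 and 9, the highest of the group. The difference was −1.42 (SE 0.159, adjusted p = 0.000893), −1.0 after quantile normalization (adjusted p = 0.000612), −0.89 in mice 8 and 9 and −0.36 on chow.

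Among other genes that kept most of their difference in mice 8 and 9, several act at the cell surface or in metabolism. OLR1, the receptor for oxidized low-density lipoprotein, lay at 10.35 to 10.84 in DW8 and 7.75 to 9.16 in DW16 (−1.76, SE 0.195, adjusted p = 0.000893, and −1.56 in mice 8 and 9). IL1R1, the interleukin-1 receptor, differed by −1.52 (−1.05 in mice 8 and 9), the endothelial and pericyte adhesion molecule MCAM by −1.27 (−1.11) and ACVR1C (ALK7), an activin-type receptor of adipocytes, by −1.22 (−1.32). The other probe set of IL1R1 differed by 0.01. MEDAG, a gene of adipocyte differentiation, differed by −1.54 (−1.38) and the sodium bicarbonate cotransporter SLC4A4 by −0.95 (−1.07), which was not called after quantile normalization (−0.56, adjusted p = 0.0227). Enzymes of sugar metabolism were among them, with PRPS1, which makes phosphoribosyl pyrophosphate (−1.86 and −1.38), and PFKFB3, which makes the activator of glycolysis fructose 2,6-bisphosphate (−1.64 and −1.16). In all 8 of these genes no DW16 mouse reached the DW8 range. They, RASD1 and HIVEP3 were picked for naming after their values had been seen.

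The largest fall of any gene was that of PMEPA1, a target and inhibitor of TGF-beta signaling. Its level was 10.09, 10.07, 10.94, 10.01 and 10.42 in the DW8 mice and 6.19 to 9.24 in the DW16 mice (median 6.91), with 8.09 and 9.24 in mice 8 and 9. Every DW16 mouse lay below the DW8 mice, and mice 8 and 9 lay nearest to them. The difference was −3.13 (SE 0.4, adjusted p = 0.0014), −2.90 after quantile normalization, −1.64 in mice 8 and 9 and 0.12 on chow, and all 3 of its probe sets were called lower as deposited. FGFR1, a fibroblast growth factor receptor, came second (−2.53, SE 0.44), with 10.23 to 10.76 in DW8, 7.07 to 8.00 in DW16 mice 1 to 7 and 9.79 and 9.87 in mice 8 and 9, a difference of −0.70 for the last. The ubiquitin ligase RNF19B (−2.37, and −0.74 in mice 8 and 9), the focal adhesion protein TNS2 (−2.15 and −0.88), the retinoblastoma relative RBL2 (−2.13 and −0.73) and the actin-binding LASP1 (−2.10 and −0.71) also had groups that did not overlap. LASP1 has 9 probe sets, of which 3 were called lower as deposited and whose differences ran from −2.10 to 0.75. PRELP, a matrix proteoglycan, kept more of its difference in mice 8 and 9 (−2.18 and −1.46), and it differed by −1.23 on chow. In PLEK, MYO1C and THBD, with differences of −2.40, −2.26 and −2.16 in all 9 mice and −0.89, −1.23 and −0.73 in mice 8 and 9, mouse 8 lay inside or above the DW8 range.

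DEPP1, a target of FOXO factors that insulin represses, had the largest rise that was called on both scales. It was measured at 9.02, 8.67, 8.63, 8.76 and 8.57 in the DW8 mice and 9.15 to 12.16 in the DW16 mice (median 10.93). The groups did not overlap, but mice 8 and 9 (9.15 and 9.69) were just above the DW8 range and mice 1 to 7 (10.68 to 12.16) well above it. By this probe set, 1 of 2, the difference was 2.29 (4.89-fold; SE 0.445, adjusted p = 0.00538), 2.72 after quantile normalization and 0.69 in mice 8 and 9, while the other probe set differed by 0.78 and was not called. PM20D1, a secreted enzyme that joins fatty and amino acids, ran the same way (1.68, and 0.43 in mice 8 and 9), as did the T-cell receptor segment TRAV9D-3 (1.87 and 0.80), FAM136A (1.54 and 0.66), the RNA polymerase III subunit POLR3K (1.46 and 0.62), EMC4 (1.42 and 0.35) and CMC2 (1.40 and 0.55). All of these genes have other probe sets that differed less. The lowest differences were −0.05 in PM20D1, 0.23 in TRAV9D-3, 0.1 in FAM136A, 0.07 in POLR3K, −0.09 in EMC4 and 0.11 in CMC2. Rises that were carried further by mice 8 and 9 were those of PDZK1IP1, with 6.75 to 7.51 in DW8, 8.12 to 10.23 in DW16 and 8.46 and 8.86 in mice 8 and 9 (1.86 and 1.49), of COX7A1, a subunit of cytochrome c oxidase (1.39 and 1.03), and of GSTA3, a glutathione transferase (1.37 and 1.29). The other probe set of GSTA3 differed by 0.11.

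**Figure D4:**
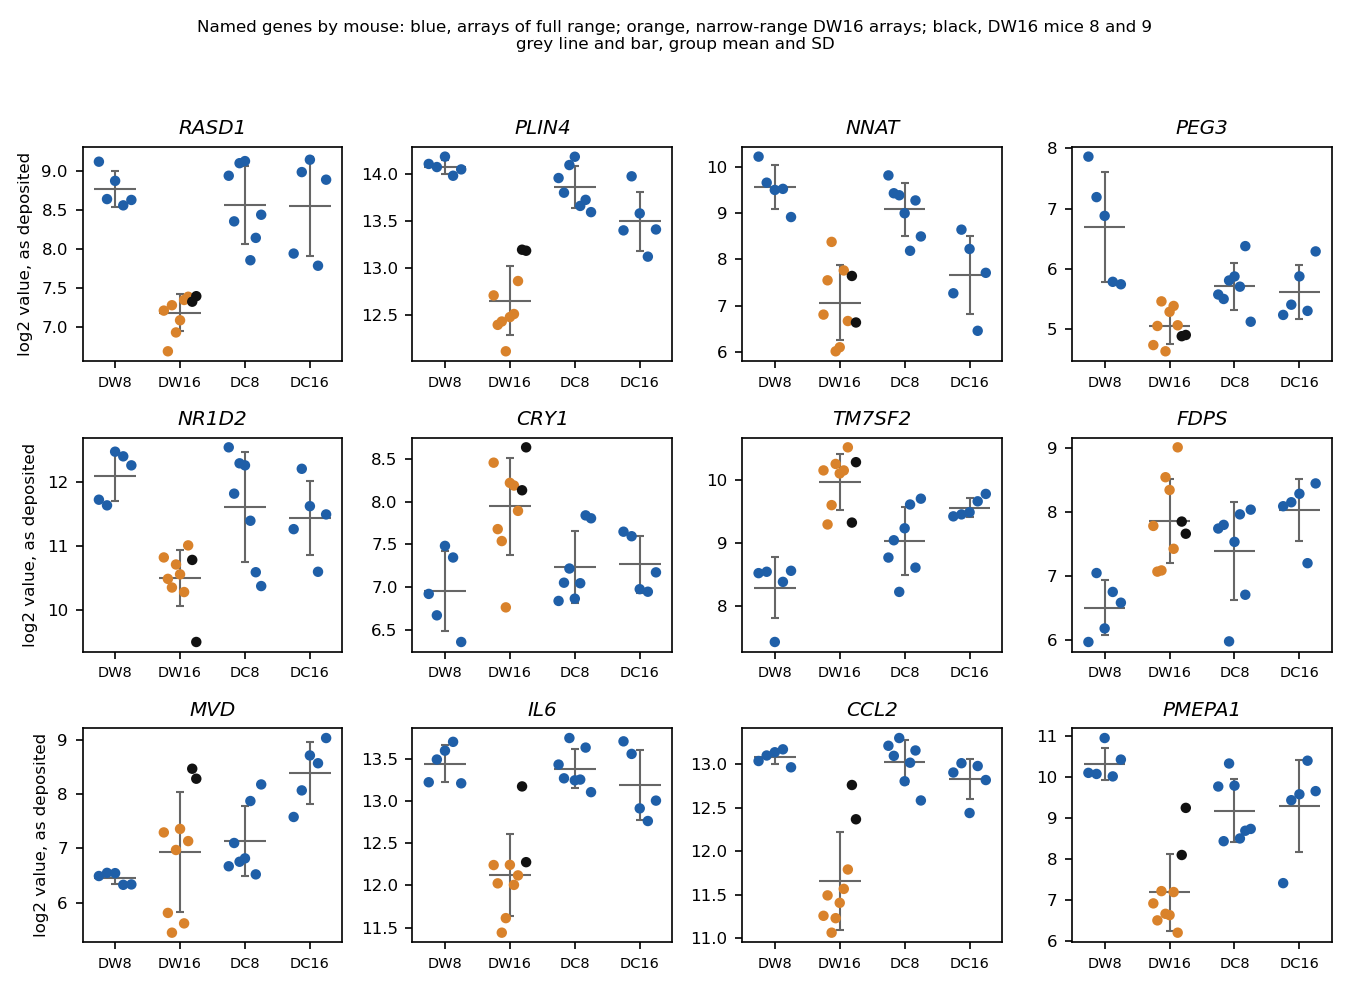
Log2 level as deposited (vertical axis, one scale per panel) of 12 genes in DW8, DW16, DC8 and DC16 mice, with 1 point per mouse and the group mean and SD in grey. Orange points are DW16 mice 1 to 7 and black points DW16 mice 8 and 9; in RASD1, NNAT, PEG3 and NR1D2 the black points lie among or next to the orange ones, while in IL6, CCL2 and PMEPA1 they lie between the orange points and DW8, and in MVD above every DW8 mouse.

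Several paternally expressed imprinted genes were low in DW16 mice inside and outside the narrow range. NNAT (neuronatin), a paternally expressed gene of adipogenesis, lay at 10.21, 9.65, 9.50, 9.52 and 8.91 in the DW8 mice and 6.02 to 8.38 in the DW16 mice (median 6.81). Mice 8 and 9 (7.64 and 6.64) were within the span of the other 7, and the groups did not overlap. The difference was −2.50 (SE 0.354, adjusted p = 0.00206), −2.24 after quantile normalization, −2.42 in mice 8 and 9 and −1.42 on chow. PEG3, a paternally expressed zinc finger gene, lay at 7.86, 7.19, 6.88, 5.78 and 5.74 in DW8 and 4.63 to 5.46 in DW16 (−1.65, SE 0.291, adjusted p = 0.0037, and −1.80 in mice 8 and 9; −0.09 on chow) by 1 of its 5 probe sets, the only 1 called. PLAGL1, a zinc finger regulator of other imprinted genes, differed by −1.49 by 1 of its 3 probe sets (SE 0.189, adjusted p = 0.0014, and −1.54 in mice 8 and 9), with groups that did not overlap. MEST, which rises with fat mass expansion, had 10.59 to 11.31 in DW8, 9.54 to 10.74 in DW16 mice 1 to 7 and 8.95 and 7.44 in mice 8 and 9, so that its difference of −1.38 was not called (adjusted p = 0.0307) although it was −2.85 in mice 8 and 9. On chow MEST differed by −1.24. PEG3, PLAGL1 and MEST were chosen after their values had been seen. A list of 29 imprinted genes, put together at the same stage, had 3 called lower as deposited (NNAT, PLAGL1 and GRB10) and 1 after quantile normalization (NNAT), and median differences of −0.062 and 0.038, against 0.027 and 0.040 over all 18193 genes. Over those genes, each by its probe set of highest mean, 6.67% were called as deposited and 7.17% after quantile normalization, the shares against which the lists below are read. On both scales 673 of the 18193 were called, 156 higher and 517 lower. Counts of members that rose or fell are read against these. Counts of list members are by that 1 probe set. Another probe set was called where it was not for 0 to 6 members of a list as deposited and 0 to 7 after quantile normalization.

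Clock genes of opposite phase differed in opposite directions. NR1D2 (REV-ERB beta), a repressor of the clock, lay at 11.73, 11.64, 12.48, 12.41 and 12.27 in the DW8 mice and 9.51 to 11.02 in the DW16 mice (median 10.56). The groups did not overlap, and mouse 9 (9.51) was the lowest of all 14. The difference was −1.60 (SE 0.217, adjusted p = 0.00174), −1.14 after quantile normalization (adjusted p = 0.00993) and −1.96 in mice 8 and 9. Its call held with each of 14 mice left out as deposited and with 2 of them after quantile normalization. NR1D1 (REV-ERB alpha) differed by −1.41 (adjusted p = 0.00923) as deposited and by −1.04 (adjusted p = 0.0573) after quantile normalization, and by −1.51 in mice 8 and 9.

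The genes that REV-ERB proteins are known to repress lay on the other side. CRY1, a cryptochrome, was measured at 6.92, 6.67, 7.48, 7.34 and 6.36 in the DW8 mice and 6.76 to 8.64 in the DW16 mice (median 8.13), with 8.13 and 8.64 in mice 8 and 9. The groups overlapped in 1 narrow-range mouse, and mice 8 and 9 lay above all DW8 mice. The difference was 0.99 (SE 0.269, adjusted p = 0.0194) as deposited, 1.22 after quantile normalization (adjusted p = 0.00555) and 1.43 in mice 8 and 9. ARNTL differed by 0.83 (adjusted p = 0.0331), 1.16 (adjusted p = 0.00473) and 1.37, with 6.94 to 8.47 in DW8 and 9.33 and 8.99 in mice 8 and 9. DBP, an output gene of the clock that was spread over 8.49 to 11.67 in DW8, was at 8.36 and 8.23 in mice 8 and 9 and differed by −1.31 (adjusted p = 0.127), and PER2 differed by −1.91 (adjusted p = 0.0196) but by −0.34 in mice 8 and 9. On chow the differences over time were −0.17 for NR1D2, −0.14 for NR1D1, 0.03 for CRY1, 0.04 for ARNTL, −0.56 for DBP and −0.41 for PER2. The DC8 mice were widely spread in ARNTL (SD 1.18) and DBP (SD 2.05). The difference between the time effects on the diets was not called in limma for ARNTL (adjusted p = 0.391), DBP (0.697) or PER2 (0.18) as deposited. Of 17 clock genes 2 were called lower as deposited, and 2 higher and 1 lower after quantile normalization, with medians of −0.755, −0.428 and −0.154 in mice 8 and 9. The methods give the same short window of the morning for the killing of all mice, and the part of differences in hour within it was not tested.

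Promoters from RefSeq (GRCm38.p6; 250 bases before and 50 after the start of a gene) are shown for ARNTL and CRY1, the clock genes called higher after quantile normalization. In capitals are the element that ROR and REV-ERB proteins share (AA, any base, then TAGGTCA) and CACGTG, the E-box read by CLOCK and BMAL1, both searched on both strands. The ARNTL promoter, 1 of 2 in the table, is at chr7:113207261-113207560 on the plus strand, and that of CRY1 at chr10:85185005-85185304 on the minus strand.
ARNTL: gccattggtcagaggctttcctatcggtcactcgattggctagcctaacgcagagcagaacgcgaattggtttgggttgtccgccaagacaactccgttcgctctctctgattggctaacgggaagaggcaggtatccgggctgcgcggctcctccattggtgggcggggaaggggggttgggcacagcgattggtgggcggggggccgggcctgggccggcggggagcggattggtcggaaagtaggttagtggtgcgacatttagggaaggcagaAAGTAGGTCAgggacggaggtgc
CRY1: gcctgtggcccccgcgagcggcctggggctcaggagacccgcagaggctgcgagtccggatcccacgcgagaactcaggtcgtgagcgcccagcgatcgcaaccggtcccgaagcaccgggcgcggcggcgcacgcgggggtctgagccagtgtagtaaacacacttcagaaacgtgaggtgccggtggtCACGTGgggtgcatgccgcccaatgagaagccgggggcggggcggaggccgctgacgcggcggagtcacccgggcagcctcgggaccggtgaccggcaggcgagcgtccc
The element in ARNTL begins at base 28 after the start, and 0.219% of 32851 promoters hold one, ARNTL alone among the 15 clock genes with a promoter in the table. The E-box in CRY1 begins 60 bases before the start, and 7.15% of promoters hold one, with 4 of the 15 clock genes. These are matches of letters and not measured sites.

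Some genes of cholesterol synthesis rose, and more of them were higher in mice 8 and 9. TM7SF2, a sterol reductase of the pathway, lay at 8.51, 8.54, 7.42, 8.38 and 8.55 in the DW8 mice and 9.29 to 10.51 in the DW16 mice (median 10.15), with 9.32 and 10.28 in mice 8 and 9. Every DW16 mouse lay above every DW8 mouse. The difference was 1.68 (3.2-fold; SE 0.232, adjusted p = 0.00188), 2.06 after quantile normalization, 1.52 in mice 8 and 9 and 0.53 on chow. FDPS, which makes farnesyl pyrophosphate, lay at 5.97, 7.05, 6.18, 6.75 and 6.58 in DW8 and 7.07 to 9.02 in DW16 (median 7.79, a difference of 1.36, SE 0.298, adjusted p = 0.00837, and 1.25 in mice 8 and 9; 0.64 on chow). The FDPS groups did not overlap, but its call held with 4 of 14 mice left out as deposited, and its other probe set differed by 0.13.

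LSS, the synthase of lanosterol, and FDFT1, squalene synthase, were called after quantile normalization only (1.17, adjusted p = 0.00526, and 1.10, adjusted p = 0.00195; as deposited 0.80 and 0.66). LSS has 3 probe sets, which differed by 0.79 to 1.27 as deposited, and 1 of the others was called as deposited. In mice 8 and 9 LSS was, by the first, at 10.18 and 10.03, above the 8.60 to 9.22 of DW8. SQLE, CYP51 and DHCR7, further enzymes of the pathway, were not called in all 9 mice (0.21, 0.56 and −0.05), and in mice 8 and 9 they were higher than in DW8 by 1.36, 1.36 and 1.17, with both mice above all 5 DW8 mice in each. On chow SQLE, CYP51 and DHCR7 differed by 1.06, 0.88 and 0.91 over the same time, and LSS and FDFT1 by 1.11 and 0.56. MVD, mevalonate diphosphate decarboxylase, was the probe set called when DW16 mice 1 to 7 were left out. Its level was 6.49, 6.55, 6.54, 6.33 and 6.33 in the DW8 mice, 8.47 and 8.28 in mice 8 and 9 and 5.45 to 7.36 in mice 1 to 7, which lay on both sides of DW8. The difference was 1.93 in mice 8 and 9 (SE 0.113, adjusted p = 0.00251) and 0.48 in all 9 (adjusted p = 0.425), and on chow 1.26. Of 16 genes of cholesterol synthesis and LXR targets 1 was called higher (FDPS) and 2 lower as deposited, and 3 higher and 0 lower after quantile normalization, with medians of −0.009, 0.339 and 0.395 in mice 8 and 9. The 2 lower were the sterol exporter ABCG1 (−0.76 and −0.58) and the lysosomal cholesterol transporter NPC1 (−0.84 and −0.55), which were not called after quantile normalization by these probe sets (−0.28 and −0.72). The other probe set of ABCG1 was called lower on both scales (−1.34 as deposited and −1.05 after quantile normalization). SREBF2, which encodes SREBP2, differed by −0.16. On chow the median of the list was 0.36.

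For TM7SF2 and LSS the promoters, at chr19:6067801-6068100 on the minus strand and chr10:76531355-76531654 on the plus strand (GRCm38.p6, RefSeq), are shown with ATTGG, the inverted CCAAT box of the factor NF-Y, in capitals.
TM7SF2: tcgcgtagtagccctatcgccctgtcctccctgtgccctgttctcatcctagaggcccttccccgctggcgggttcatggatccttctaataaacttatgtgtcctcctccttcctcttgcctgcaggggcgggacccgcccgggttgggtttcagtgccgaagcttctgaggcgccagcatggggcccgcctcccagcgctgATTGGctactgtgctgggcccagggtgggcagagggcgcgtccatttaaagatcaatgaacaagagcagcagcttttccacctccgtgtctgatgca
LSS: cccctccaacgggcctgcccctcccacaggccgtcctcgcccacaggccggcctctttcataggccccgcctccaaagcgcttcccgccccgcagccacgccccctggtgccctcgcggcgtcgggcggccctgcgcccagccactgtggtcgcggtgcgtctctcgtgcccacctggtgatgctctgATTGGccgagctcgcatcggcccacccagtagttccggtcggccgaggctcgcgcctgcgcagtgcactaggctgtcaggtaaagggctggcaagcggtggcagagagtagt
The box begins 47 bases before the start of TM7SF2 and 62 before that of LSS. Since 37.4% of all promoters hold ATTGG on either strand, its presence in 8 of 9 list members with a promoter in the table is given as a description. The letters TCACNCCAC, a sterol element, are in 1.24% of promoters and in neither of the pair, and among the 9 only in HMGCS1. Except TM7SF2, FDPS, ABCG1 and NPC1, the sterol genes given with values were chosen after their values had been seen.

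Fatty acid synthesis genes split the DW16 mice. Of 16 genes of de novo lipogenesis 0 were called on either scale in limma, and the median difference was −0.218 as deposited and 0.184 after quantile normalization, but 0.695 in mice 8 and 9. ELOVL6, an elongase of long fatty acids, lay at 10.56 to 12.56 in DW8, at 10.52 to 13.35 in mice 1 to 7 and at 13.65 and 13.76 in mice 8 and 9 (0.77, adjusted p = 0.281, and 1.99 in the last). ACACB, an acetyl-CoA carboxylase, differed by 0.14 in all 9 and 1.78 in mice 8 and 9, and MLXIPL (ChREBP), a glucose-responsive factor, by −0.27 and 1.49. Both mice lay above all DW8 mice in these 3 genes. These counts are by the probe set of highest mean. By other probe sets THRSP and FADS2 were called higher on both scales and ACSS2 after quantile normalization, with FADS2, a desaturase, called by 1 of its 3 probe sets (0.88, adjusted p = 0.00714, and 1.06 in mice 8 and 9). On chow the list's median was 0.501.

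Subunits of oxidative phosphorylation were called higher after quantile normalization in 9 of 27 genes, and COX7A1 as deposited, with 0 called lower on either scale. COX7A1 lay at 5.63, 5.20, 5.63, 4.76 and 5.02 in the DW8 mice and 6.08 to 7.58 in the DW16 mice, which did not overlap (1.39, SE 0.235, adjusted p = 0.00323). NDUFB8, of complex I, differed by 0.41 as deposited and 0.84 after quantile normalization (adjusted p = 0.00204), and COX5B by 0.27 and 0.64 (adjusted p = 0.00233). In mice 8 and 9 they differed by 0.62 and 0.37. The list's median was −0.188, 0.22 and 0.266 in mice 8 and 9, so its sign depends on the scale. Genes of the proteasome (23, 0 called as deposited and 3 higher after quantile normalization) and of the ribosome (16, 0 and 2 higher) had the same change of sign, with medians of −0.352 and −0.342 as deposited and 0.105 and 0.058 after quantile normalization. By other probe sets 1 gene of oxidative phosphorylation was called higher on both scales, 1 ribosomal gene higher on each scale, and 1 proteasome gene higher and 2 lower after quantile normalization.

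**Figure D5:**
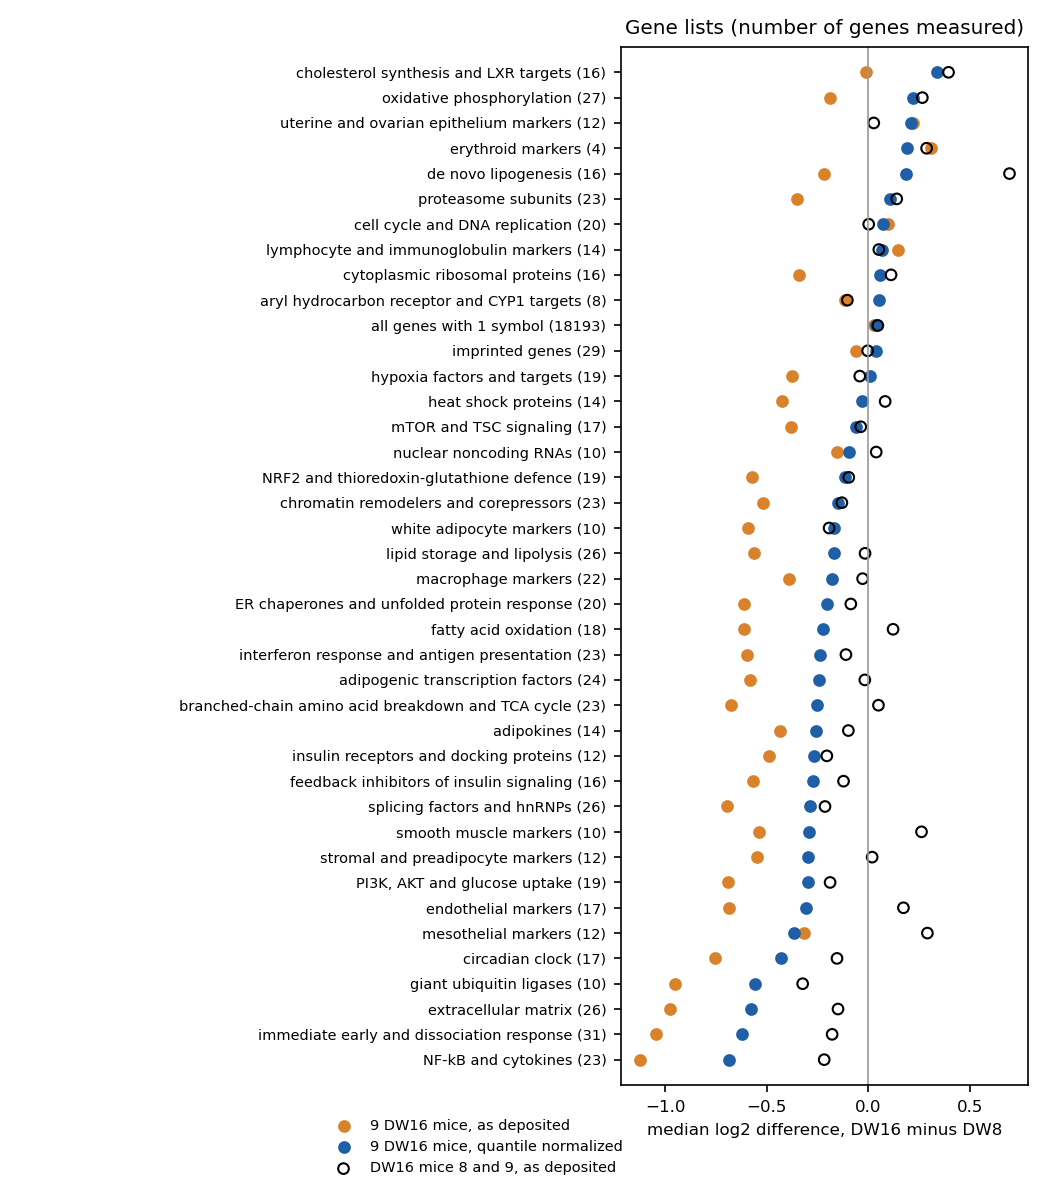
Median log2 difference DW16 minus DW8 (horizontal axis) of 39 gene lists and of all genes with 1 symbol, as deposited (orange), after quantile normalization (blue) and in DW16 mice 8 and 9 as deposited (open). Orange points lie left of blue ones in most lists, and NF-kB, immediate early and matrix genes are lowest at −1.126, −1.043 and −0.976 as deposited against −0.217, −0.178 and −0.149 in mice 8 and 9.

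Genes of lipid storage and breakdown were lower as deposited and mixed after quantile normalization. Of 26, 3 were called lower on both scales, PLIN4, the hormone-sensitive lipase LIPE (−1.42, adjusted p = 0.00415, and −0.44 in mice 8 and 9) and the droplet fusion protein CIDEC (−1.36 and −0.30), and 3 were called higher after quantile normalization only, PNPLA3 (0.81), FABP5 (0.60) and BSCL2 (0.69). The median was −0.563 as deposited, −0.17 after quantile normalization and −0.016 in mice 8 and 9. LIPE is measured by a second probe set that differed by 0.23. By other probe sets LPL and CAVIN1 were called lower on both scales, and MGLL after quantile normalization. PCK1, of glycerol synthesis for triglyceride, was not called (−1.58, adjusted p = 0.0153), though mouse 8 (8.86) was the lowest of all and mouse 9 (11.02) below the 11.78 to 13.08 of DW8. Of 24 transcription factors of adipogenesis CEBPA (−0.97 and −0.43), STAT5A (−0.79 and −0.34) and ZFP423 (−1.01 and −0.28) were called lower as deposited and 0 after quantile normalization. By other probe sets 5 of the 24 were called lower as deposited, and 6 lower and 1 higher after quantile normalization, STAT5A (−1.05) among them. Of 14 adipokines VEGFA (−1.11 and −0.66), the chemerin gene RARRES2 (−0.77 and −0.60) and angiotensinogen AGT (−1.02 and −0.46) were called lower as deposited, with −0.70, −0.29 and −0.58 after quantile normalization, where resistin (RETN) was called higher (0.40, as deposited 0.05). Medians were −0.584 for the factors and −0.437 for the adipokines as deposited, and −0.017 and −0.098 in mice 8 and 9.

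Some genes of insulin signaling were called by their probe set of highest mean, and none of those that the labels give as heterozygous. As deposited 25.0% of receptors and docking proteins, 10.5% of the PI3-kinase list, 5.88% of the mTOR list and 12.5% of feedback inhibitors were called. The share over all genes was 6.67%. After quantile normalization the shares were 0.0%, 5.26%, 11.8% and 12.5% in the same order, against 7.17%. INSR lay at 9.17 to 9.72 in DW8 and 9.12 to 9.90 in DW16 (−0.01, adjusted p = 0.954; 0.38 after quantile normalization), and IRS1 at 10.60 to 11.18 and 10.07 to 11.14 (−0.44, adjusted p = 0.0968; 0.01). For APOE, deleted in both groups, the difference was −0.94 (adjusted p = 0.011). Where these probes lie relative to the deleted parts is not given, so the levels do not check the labels. Of 12 receptors and docking proteins 3 were called lower as deposited, the ubiquitin ligase CBL (−0.82 and −0.70), SHC1 (−0.60 and −0.37) and the receptor inhibitor GRB10 (−0.86 and −0.56), and 0 after quantile normalization. IRS2 differed by −1.19 (adjusted p = 0.0155) and by −0.13 in mice 8 and 9. Of 19 genes of PI3-kinase, AKT and glucose uptake the inositol phosphatase INPPL1 (−0.90 and −0.24) and the GLUT4 vesicle protein RAB10 were lower as deposited and RAB10 alone on both scales (−1.36, adjusted p = 0.00729, and −0.33 in mice 8 and 9). By other probe sets PIK3R1, SLC2A1 and FOXO1 were called lower on both scales. AKT2 (−1.35, adjusted p = 0.0104) and the glucose transporter SLC2A4 (−0.73, adjusted p = 0.172) were not called, and in mice 8 and 9 SLC2A4 was higher than in all DW8 mice (12.17 and 11.97 against 11.10 to 11.42).

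Of 17 mTOR pathway genes the autophagy kinase ULK1 fell (−1.15, and −0.20 in mice 8 and 9), TSC2 was not called (−1.55, adjusted p = 0.0121, and −0.04), and the GTPase RHEB was called lower after quantile normalization only (−0.44). Of 16 feedback inhibitors 2 fell on both scales. CISH, a suppressor of cytokine signaling, lay at 11.25 to 11.66 in DW8 and 9.72 to 11.15 in DW16 (−1.26, SE 0.202, adjusted p = 0.00264, and −0.51 in mice 8 and 9). TRIB1, a pseudokinase, lay at 10.26 to 11.02 and 7.98 to 10.20 (−2.05, SE 0.347, adjusted p = 0.00331, and −0.62), without overlap in either. The other probe set of TRIB1 differed by 0.06. Medians of these lists were −0.487 for receptors, −0.691 for PI3-kinase, −0.381 for mTOR and −0.568 for inhibitors as deposited, and −0.204, −0.188, −0.037 and −0.122 in the same order in mice 8 and 9.

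Cytokine and NF-kB genes had the lowest median of the lists on both scales over all 9 mice, while in mice 8 and 9 that of the giant ubiquitin ligases was lower. Of 23, 12 were called lower as deposited and 6 on both scales, with medians of −1.126, −0.687 after quantile normalization and −0.217 in mice 8 and 9. IL6 lay at 13.22, 13.49, 13.60, 13.70 and 13.21 in the DW8 mice and 11.44 to 13.17 in the DW16 mice (median 12.12), with 13.17 and 12.28 in mice 8 and 9. The groups did not overlap, mouse 8 being just under the lowest DW8 mouse. The difference was −1.32 (SE 0.213, adjusted p = 0.0028), −0.91 after quantile normalization and −0.72 in mice 8 and 9. CCL2, a monocyte attractant, differed by −1.42 (−0.52 in mice 8 and 9), CXCL10 by −1.72 (−0.38) and the eosinophil attractant CCL11 by −1.71 (−0.51). The NF-kB subunits REL (−0.82 and −0.64), RELA (−1.69 and −0.11) and RELB (−1.39 and −0.25) were lower as deposited and not called after quantile normalization. Immediate early genes (31) had 6 called lower as deposited, 9 after quantile normalization and 5 on both, with medians of −1.043, −0.623 and −0.178. Among them MYC (−1.63, and −0.50 in mice 8 and 9), ZFP36, which destabilizes cytokine mRNA (−2.03 and −0.40), and CCN1 (−1.04 and −0.68) fell. How long each tissue was digested is not given for single mice, and its part in these differences was not tested.

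Matrix genes had 11 of 26 members called lower as deposited and 7 on both scales, with medians of −0.976, −0.579 and −0.149 in mice 8 and 9. COL15A1, a basement membrane collagen, lay at 10.23 to 11.04 in DW8, 8.11 to 9.27 in mice 1 to 7 and 10.58 and 9.49 in mice 8 and 9 (−1.69, SE 0.304, adjusted p = 0.00399, and −0.68). Fibronectin FN1 differed by −1.50 (−0.52 in mice 8 and 9), nidogen NID1 by −1.10 (−0.55), SPARC by −1.60 (−0.16), and the thrombospondin THBS1 by −1.78 (−1.08). FN1 and SPARC each have a probe set without the fall, with differences of −0.09 and 0.58. TGFB1 lay at 6.99 to 8.59 in DW8, 4.96 to 5.68 in mice 1 to 7 and 7.52 and 7.87 in mice 8 and 9, which were inside the DW8 range (−2.10, adjusted p = 0.00787, and −0.33). The other probe set of TGFB1 differed by −0.14. By other probe sets COL4A1 and LAMB1 were called lower on both scales, and LAMC1 after quantile normalization. On chow the median of the list was −0.363.

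Giant ubiquitin ligases and splicing factors had members that fell. Of 10 ligases 5 fell, with medians of −0.951, −0.56 and −0.323. MYCBP2, a regulator of axons and mTOR, lay at 12.53 to 12.96 in DW8 and 11.19 to 12.06 in DW16 without overlap (−1.10, SE 0.142, adjusted p = 0.0014, and −0.93 in mice 8 and 9), and 2 of its 7 probe sets were called as deposited and 1 after quantile normalization. NEDD4 (−1.31 and −0.60), HERC1 (−1.24 and −0.50), HUWE1 (−1.02 and −0.35) and UBE3A (−1.17 and −0.26) were the others. HUWE1 has 5 probe sets, of which 1 was called, with differences of up to 0.71 as deposited. By another probe set TRIP12 was called lower on both scales. Of 26 splicing factors 6 fell, HNRNPL (−1.01 and −0.64), PRPF8 (−1.44 and −0.32), RBM39 (−1.35 and −0.48), SRSF6 (−1.37 and −0.31), SRSF2 (−1.66 and −0.36) and SF3B1 (−1.21 and −0.41). By other probe sets SRSF1, SRSF3, HNRNPC and HNRNPK were called lower on both scales, SRSF10 and SF3B2 as deposited and HNRNPA1 after quantile normalization. HNRNPL, RBM39 and SRSF6 also have probe sets with differences of up to 0.24, 0.23 and 0.23. The medians of the splicing list were −0.694, −0.287 and −0.213. Of 19 genes of antioxidant defence TXNRD1 (−1.98, and −0.81 in mice 8 and 9) and SRXN1 (−1.92 and −0.89), both targets of NRF2, fell. TXNRD1 fell by 1 of its 3 probe sets, whose differences ran up to 0.71. After quantile normalization only, NFE2L2 (−0.73), which encodes NRF2, and GPX1 (−0.70) were called lower and GSTA4 (0.75) higher. The corepressor subunit RCOR1 (−1.04 and −0.71) and ANKRD11, a chromatin regulator (−1.13 and −0.52), were the 2 of 23 chromatin genes that fell by the probe set of highest mean. By other probe sets CHD1, ARID1A and KMT2A were called lower on both scales, and SMARCC1 and SIN3A as deposited.

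The remaining lists together held calls in both directions. Of 20 genes of the endoplasmic reticulum PDIA3, a disulfide isomerase, fell by 1 of its 2 probe sets (−1.17, and −0.44 in mice 8 and 9), with ATF4 (−0.63) and HERPUD1 (−1.12) called lower as deposited only. By other probe sets HSPA5, XBP1, DNAJC3 and EDEM1 were called lower on both scales, and HSPA5 also higher after quantile normalization. Of 14 heat shock genes the cochaperone BAG3 fell (−1.69 and −0.31), and after quantile normalization HSPB8 (−0.91) was called lower and HSPE1 (0.79) and CRYAB (0.94) higher. Of 19 hypoxia genes the glycolytic PGK1 rose (0.57 and 0.38) and the hexokinase HK2 fell (−1.01 and −0.34), with PDK1 (0.95) and EGLN3 (0.81) called higher after quantile normalization only and VEGFA (−1.11) lower as deposited only. By other probe sets HIF1A and SLC2A1 were called lower on both scales, NDRG1 and ADM lower as deposited, and EPAS1 and ALDOA higher after quantile normalization. Of 8 genes of the aryl hydrocarbon receptor list, which holds the receptor itself, TIPARP fell (−0.90 and −0.47). Of 23 interferon and antigen presentation genes OASL2 (−1.03 and −0.44) and GBP3 (−1.26 and −0.24) fell. Of the same 23, IRF9 (−1.12) was called lower as deposited but not after quantile normalization, and B2M (−0.32) lower and RSAD2 (0.89) higher after quantile normalization but not as deposited. Of 18 genes of fatty acid oxidation CPT1A, the entry step into mitochondria, was called lower as deposited (−0.79 and −0.73) and 0 were called on both scales. After quantile normalization HADH (0.34), ETFB (0.48) and the carnitine carrier SLC25A20 (0.55) were called higher, and ETFA (−0.54) lower. Of 23 genes of branched-chain amino acid breakdown and the TCA cycle MCCC2 fell (−1.14 and −0.30), and CS, citrate synthase, was called higher after quantile normalization (0.72). MCCC2 has 3 probe sets, of which 2 were called lower on each scale and whose differences ran from −2.13 to −0.13 as deposited. Of 20 cell cycle genes PCNA was called lower after quantile normalization only (−0.82), and of 10 nuclear noncoding RNAs 0 were called on either scale by limma. By other probe sets of these RNAs MALAT1 was called lower as deposited, and KCNQ1OT1 lower and GAS5 and SNHG11 higher after quantile normalization. Medians of these lists ran from −0.678 for branched-chain amino acid breakdown and TCA cycle to 0.099 for the cell cycle as deposited.

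Markers of adipocytes were near the top of the arrays in both groups. Adiponectin (ADIPOQ) lay at 14.69, 14.67, 14.65, 14.64 and 14.60 in the DW8 mice and 13.52 to 14.59 in the DW16 mice (−0.61, adjusted p = 0.0268). The mean level of 10 white adipocyte markers was 12.78 to 12.94 in DW8, 11.51 to 12.85 in DW16 and 12.85 and 12.60 in mice 8 and 9, with 3 called lower as deposited and 2 lower and 1 higher after quantile normalization. Of 22 macrophage markers (mean level 9.37 to 9.47 in DW8, 8.55 to 9.48 in DW16, 9.48 and 9.41 in mice 8 and 9) MRC1 was called lower as deposited (−1.20 and −0.29) and 2 were higher after quantile normalization. By other probe sets MS4A7 and LPL, the latter also an adipocyte marker, were called lower on both scales. Of 17 endothelial markers (9.39 to 9.78, 8.40 to 9.80, 9.63 and 9.80) CDH5 fell on both scales (−1.23, and −0.49 in mice 8 and 9). The other probe set of CDH5 differed by −0.1. Stromal markers (12; 9.18 to 9.56, 8.30 to 9.50, 9.50 and 9.40) had COL3A1 called lower as deposited (−1.24 and −0.49). Of 12 markers of uterine and ovarian epithelium (6.21 to 6.53 and 6.15 to 6.59) LIF fell (−1.77, and −1.17 in mice 8 and 9). The other probe set of LIF differed by −0.01. For mesothelial (12; 6.06 to 7.12, 5.57 to 7.36) and smooth muscle markers (10; 8.79 to 9.82, 8.21 to 9.72) 0 were called on either scale by limma, and among 4 erythroid markers 0. By other probe sets the smooth muscle and pericyte marker RGS5 was called lower as deposited and higher after quantile normalization. Of 14 lymphocyte and immunoglobulin markers (6.26 to 6.5 and 5.84 to 6.62) the immunoglobulin joining chain JCHAIN (−1.41, and −1.66 in mice 8 and 9) and PTPRC (−1.52 and −0.48) were lower as deposited, and PTPRC on both scales. In mice 8 and 9 the mean level of each marker list lay within or above the DW8 range, except that of the adipocyte markers in mouse 9. Fewer cells of a type and less RNA per cell cannot be told apart in such samples, and the part of other cells in the differences was not tested.

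On chow, limma called no difference over the same time. Between DC16 and DC8, neither of which is on narrow-range arrays, it called 0 of 45037 probe sets on either scale (0%), with 3934 and 4293 at an unadjusted p under 0.05. The 1430 probe sets called on both scales in the Western groups had a median size of 0.157 as deposited between the chow groups, against 0.0853 over all probe sets, and 77.3% had the same sign as on the Western diet, against 53.6% of all. The chow groups share no mouse with DW16 or DW8.

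The difference between the time effects on the diets was called for 2 probe sets as deposited (0.00444%) and for 60 after quantile normalization (0.133%, with 31 higher and 29 lower), of which 58 were also called between DW16 and DW8. The 2 were IGKV8-30, an immunoglobulin kappa segment (−2.33, SE 0.347, adjusted p = 0.00899), and a probe set without a symbol (−1.79, adjusted p = 0.00676). IGKV8-30 differed by −1.14 on the Western diet (−0.80 in mice 8 and 9) and by 1.20 on chow. After quantile normalization the largest of those with a symbol were the mitochondrial assembly factor PET100 (1.58), the interferon-induced RSAD2 (1.39), BVHT (1.38), DPCD (1.37) and TXNRD2 (1.34) upward, and IGKV8-30 (−2.05), NID1 by a second probe set (−1.79), MICAL3 (−1.35), the histone mRNA binding SLBP (−1.32) and RNF149 (−1.24) downward. RSAD2 differed by 0.46 on the Western diet, by 0.89 after quantile normalization, and by −0.53 on chow. For RASD1 the interaction was −1.57 (adjusted p = 0.0176), for PLIN4 −1.06 (adjusted p = 0.0182), for TM7SF2 1.15 (adjusted p = 0.0433) and for MVD −0.78 (adjusted p = 0.389).

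In E mice on the Western diet no difference of the time effects from that in D mice was called on either scale by limma (0 of 45037 probe sets, 0.0%, with 3123 and 3884 at an unadjusted p under 0.05). EW16 mice 4 to 8, outside the narrow range, against EW8 gave 9 calls as deposited (0.02%), among them DNAJB12 (−1.48), P4HA1 (−1.40), BAZ1B (−2.01) and JMY (−1.79), and 0 after quantile normalization (12809 at an unadjusted p under 0.05). At an adjusted p under 0.05 limma gave 5385 probe sets as deposited and 5338 after quantile normalization. Between the chow groups it gave 0 and 3. These E groups share no mouse with DW16 or DW8. Among the 1430 probe sets called on both scales in D mice, 66.7% had the same sign in E mice as deposited. The share over all probe sets was also 66.7%. After quantile normalization the shares were 65.9% and 59.5%. In this comparison of E mice RASD1 differed by −0.62 (adjusted p = 0.0641), PLIN4 by −0.30 (adjusted p = 0.255) and NNAT by −1.38 (adjusted p = 0.0522). PMEPA1 differed by −2.35 (adjusted p = 0.0116). None of the clock and sterol genes described above was called there. Of the clock genes NR1D2 differed by 0.05, CRY1 by 0.21, ARNTL by 0.02 and DBP by 0.05, while NR1D1 differed by −0.62 (adjusted p = 0.113) and PER2 by 0.79 (adjusted p = 0.224). Of the sterol genes SQLE differed by 0.68 (adjusted p = 0.0693), CYP51 by 0.65 (adjusted p = 0.06), FDFT1 by 0.60 (adjusted p = 0.11) and FDPS by 0.53 (adjusted p = 0.284). TM7SF2 differed by 0.45 (adjusted p = 0.301), LSS by 0.02, MVD by 0.06 and DHCR7 by −0.30.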

How the data were processed

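Each of 45 female mice had 1 Affymetrix MG430-2.0 array, and DW16 (n = 9) and DW8 (n = 5) were compared. The deposited values are log2 intensities that the authors normalized with RMA (RMA express, version not given in the sources used here) after scanning with global scaling. Of 45037 probe sets 34945 had 1 gene symbol in the platform annotation (18193 genes), 932 had several and 9160 had none.

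Groups were compared with limma 3.58.1 (lmFit and eBayes, two-sided) in R 4.3.3 on the values of the groups compared only, with p-values adjusted by the Benjamini-Hochberg method across the whole table at a threshold of 0.01. This was repeated after quantile normalization of the deposited values over all 45 arrays, which also removes any true difference in distribution. Changes over time were compared between diets and between genotypes by interaction contrasts. The number of mice limits the precision, and separate litters or cages are not stated. List members were represented by their probe set of highest mean, and levels were compared within a probe set only.

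Genes were named by rule: the 12 largest differences each way called on both scales, the 6 largest each way with mice 8 and 9 beyond DW8, for each list up to 4 members by adjusted p, the genes of the genotype and of the study, and the 5 largest each way in the interactions. Genes outside the rule are marked in the report as chosen after their values were seen, as were ARNTL, DBP, PER2, SPARC, THBS1, TGFB1, CXCL10, RELA, RELB, COX5B, ACACB, MLXIPL and the members given only to complete a count. The comparison, the lists and the tests were chosen with earlier results of these data known. The scripts were tested on simulated data. Plots were drawn with Python 3.11.15 and matplotlib 3.10.9. Alternatives were other scalings, spreads and thresholds, SAM, mice or narrow-range arrays left out, each array's SD as a covariate, and the replicate number as a block.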

Additional observations from a re-analysis of the deposited data

Results flagged for a closer look

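Of 302 groups of mice tested for 1 that stands apart by Dixon's ratio at its 95% critical value, 21 held such a mouse, where chance gives about 1 in 20. In DW16 mouse 8 stood apart upward in PLEK (10.23), MYO1C (8.93), SHC1 (8.58), IL6 (13.17), MRC1 (10.55), CDH5 (9.68), LIF (8.67) and MICAL3 (8.03), and downward in PET100 (8.05). Its array is 1 of the 2 of DW16 that are not narrow in range. Mouse 9 stood apart downward in NR1D2 (9.51), mouse 1 in NR1D1 (6.75) and mouse 3 in OLR1 (7.75).

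In DW8 the mouse apart was mouse 3 in TM7SF2 (7.42, low), AKT2 (11.76, high) and RELA (12.36, high), mouse 1 in NPC1 (7.69, high), PLAGL1 (7.27, high) and SQLE (8.21, low), mouse 2 in HNRNPL (7.14, low), mouse 4 in RGS5 (11.55, low) and mouse 5 in AGT (10.45, low).

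The change over time on the Western diet minus that on chow passed the adjusted threshold of limma as deposited for IGKV8-30 (−2.33), and after quantile normalization for IGKV8-30 (−2.05), PET100 (1.58), RSAD2 (1.39), BVHT (1.38), DPCD (1.37), TXNRD2 (1.34), NID1 (−1.79), MICAL3 (−1.35), SLBP (−1.32), RNF149 (−1.24) and CCN1 (−0.78). The chow groups hold no narrow-range arrays and DW16 holds 7. This contrast had 0 calls without the narrow-range arrays on either scale, and 0 as deposited with array SD as a covariate. Both fits leave less to test, so the part of the narrow range cannot be told apart from that of time on the diet.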

How the results depend on the processing

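The number of probe sets called depended on nearly every choice tried, with the counts below given as total, higher and lower against 2436, 420 and 2016. Quantile normalization gave 2479, 1209 and 1270. Centring each array on its median gave 2965, 237 and 2728, and 1 spread over all 7 groups 6992, 2351 and 4641. Array weights gave 12501, 4723 and 7778, probe sets above the median level alone 3498, 419 and 3079, and SAM 3199, 658 and 2541. A threshold of 0.05 gave 10357, 3799 and 6558, and a 2-fold minimum 1163, 51 and 1112. Without the narrow-range arrays the counts were 1, 1 and 0 on either scale, and with array SD as a covariate 2, 0 and 2, where fewer mice or a covariate that follows the groups leave less to test. Without DW16 mice 8 and 9 they were 11341, 3557 and 7784, and after quantile normalization 9653, 4642 and 5011. With single mice left out they ran from 198 to 7301, 15 to 2981 and 108 to 5331.

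The replicate numbers were not taken as pairs. Same-numbered mice of the groups deviated from their group means with r between −0.133 and 0.00301 in 5 pairs, as deposited. The DW16 mice of these pairs all have narrow-range arrays, so these values cannot settle whether mice were paired. In mice 1 to 5 of each group, which leaves out DW16 mice 8 and 9, the replicate number as a block gave 8076, 1704 and 6372 against 10336, 2935 and 7401 without the block, and the block with quantile normalization 6903, 3206 and 3697.

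The diet contrast had 2 calls as deposited, 60 after quantile normalization, 13 with centring, 12 with a trended robust prior, 24 above the median level, 8892 with array weights and 2910 at 0.05. It had 0 with 1 spread over all groups, with the SD covariate and without the narrow-range arrays on either scale, and 0 to 3037 with single mice left out. The genotype contrast had 0 calls in limma under every alternative run except array weights (3031), and 0 to 0 with single mice left out. None of 237 named probe sets was called as deposited and then called with the opposite sign under an alternative. Of those not called as deposited, none was called with the opposite sign by quantile normalization of the full comparison. With quantile normalization and the replicate block in mice 1 to 5 of each group there was 1. There was also 1 with quantile normalization and without the DW16 mice outside the narrow range. The causes of these changes were not tested.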
